A study of Mus musculus with 6 samples.

Results

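Phase II conjugation enzymes are the transferases that attach glutathione, glucuronic acid or sulfate to foreign compounds, steroids, bile acids and products of lipid peroxidation. The genes described here were taken by name: symbols beginning with Gsta, Gstk, Gstm, Gsto, Gstp, Gstt or Mgst and a digit, with Ugt and a digit, or with Sult and a digit, among probe sets that the platform annotation pairs with exactly 1 symbol. This gave 46 genes on 60 probe sets, of 18193 genes with such a probe set: 22 glutathione transferase genes, 11 UDP-glycosyltransferase genes and 13 sulfotransferase genes. All were measured in liver RNA of C57BL/6 mice on 6 Affymetrix 3′ expression arrays. The control group held 3 liver samples from mice injected intravenously with AAV8, an adeno-associated virus that enters hepatocytes, carrying luciferase. The other group held 3 liver samples from mice given the AAV8 vector with Nfkbiz, the gene of the nuclear IκB protein IκBζ. Both groups received the vector and, 4 weeks later, CDAHFD for 4 weeks, a high-fat diet deficient in choline, with defined amino acids,, used to model fatty liver disease, and livers were perfused with PBS before RNA was taken. For age and sex of the mice, the vector's promoter, feeding state and time of day, the sources used here give nothing. Values are MAS5 intensities on a linear scale, each array scaled to 1 target. Differences are log2 of the AAV8-Nfkbiz level minus that of AAV8-luciferase, ± the standard error (SE) of the limma fit.

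Glutathione transferases (GSTs) join glutathione to electrophiles, and the cytosolic ones form classes named alpha, mu, pi, theta, omega and so on. The microsomal MGSTs are unrelated membrane proteins. UDP-glucuronosyltransferases (UGTs) of the endoplasmic reticulum use UDP-glucuronate, and cytosolic sulfotransferases (SULTs) use the sulfate donor PAPS. In liver these genes are controlled by hepatocyte transcription factors and, in part, by the sensors NRF2, AhR, CAR and PXR. Not every gene the name rule takes conjugates foreign compounds: Ugt8a makes the galactolipids of myelin, and Sult4a1 is a brain protein.

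None of the conjugation enzyme genes passed the test between the vectors. Of the 46 genes, 37 passed the filter on low intensities (mean over all 6 arrays above the lowest 40% of probe sets, an intensity of 47.4), and 0 of these 37 had a limma adjusted p below 0.05, where 30 of 13312 genes, or 0.225%, did. At an unadjusted p below 0.05 the fit gave 4 of the 37, 0 higher and 4 lower in the Nfkbiz livers (Gstt3, Gstm1, Gstm3 and Sult1e1). Over all genes 12.0% reached that level, 5.03% higher and 7.0% lower. The groups did not overlap for 3 members, Gstt3, Gstm1 and Sult1c2, all lower with Nfkbiz, against 18.0% of all genes, 8.0% higher and 10% lower. With luciferase replicate 3 left out, 4 members had an unadjusted p below 0.05 and a higher level and 2 a lower one (6.39% and 7.73% of all genes). With Nfkbiz replicate 3 left out these counts were 5 and 6 (4.61% and 7.36% of all genes). Differences were positive for 20 members and negative for 17, and positive for 47.8% of all genes. The median difference was 0.01 over the members and -0.02 over all genes tested, and the median size of the difference was 0.20 in both. Of the 60 member probe sets, 48 were above the filter in a fit over single probe sets, and 0 passed (0.0703% of all probe sets). There 8 had an unadjusted p below 0.05 with a lower level (6.47% of all) and 0 with a higher one (4.14% of all). Groups without overlap were found for 5 on the lower side (9.69% of all) and 0 on the higher side (7.03% of all). The labels name separate samples and do not say whether these are separate animals. The p-values then cover only the variation among these arrays, which may be technical.

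The precision of this result can be read from the intervals. The 95% interval of the difference lay within a change of 1.5-fold in either direction for 20 of the 37 members and within 2-fold for 29, against 36.7% and 73.2% of all genes tested. By class these counts within 2-fold were 17 of 19 GST and MGST genes, 8 of 10 UGT genes and 4 of 8 SULT genes. The 8 members with wider intervals allowed changes beyond 2-fold.

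**Figure D1:**
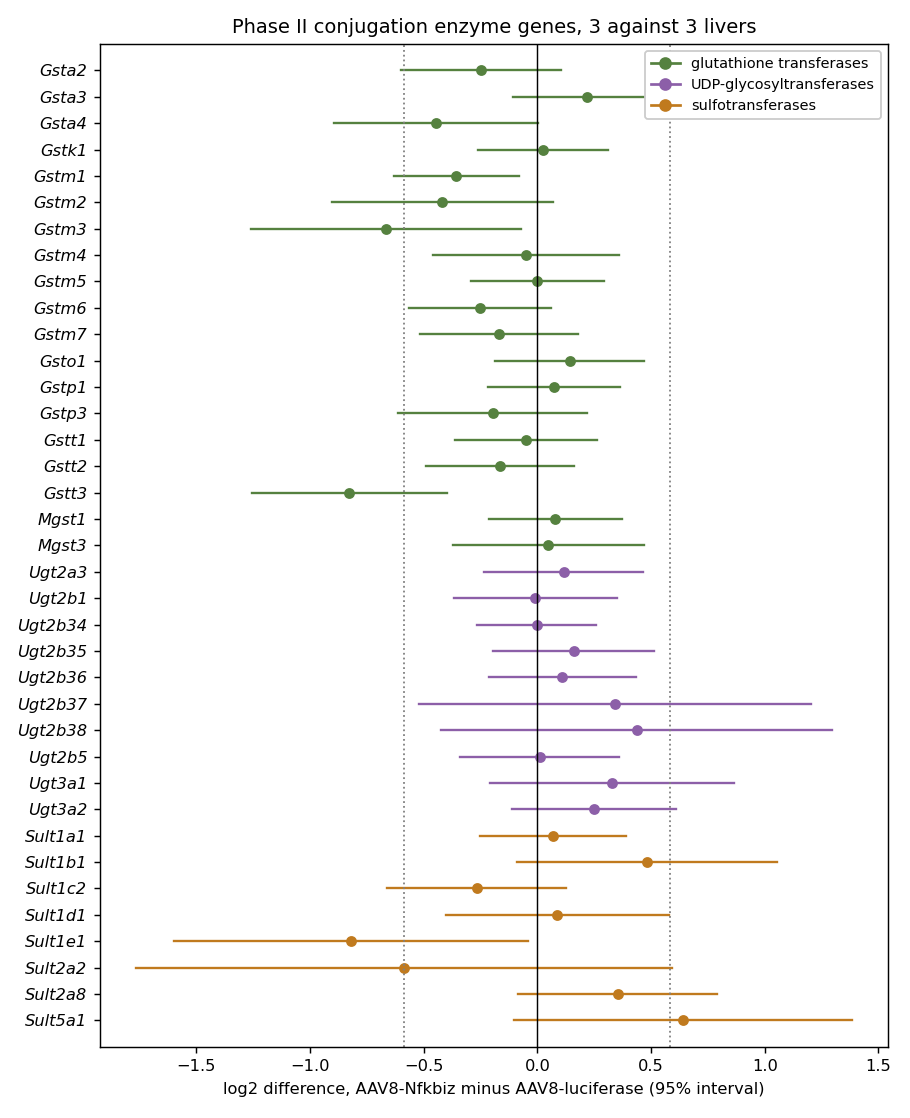
Log2 difference (AAV8-Nfkbiz minus AAV8-luciferase, x axis) of the 37 tested conjugation enzyme genes, with points for the limma estimate and lines for its 95% interval; dotted lines mark a 1.5-fold change. Most points lie near 0, the lowest are Gstt3 (-0.83) and Sult1e1 (-0.82), and the highest is Sult5a1 (0.64).

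As a check of the labels, the Nfkbiz probe set 1448728_a_at gave intensities of 221, 229.5 and 179.7 in the control livers and 4424, 4073 and 2006 in the Nfkbiz livers, a log2 difference of 3.98 ± 0.27 (limma adjusted p = 0.000901 over 27022 probe sets). The other probe sets of the gene, 1417483_at and 1457404_at, had differences of 0.30 ± 0.19 and -0.89 ± 0.54 and did not pass. The third Nfkbiz array was thus the lowest of its group at the vector-linked probe set. The third luciferase array stood apart from the other 5 on the second principal component of all genes, at -45.1 where the others lay between 3.11 and 21.1. The liver markers were present throughout: the mean log2 level of 10 hepatocyte markers lay between 14.77 and 14.99 on the 6 arrays.

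Mu-class GSTs, the Gstm genes, were mostly on the lower side with Nfkbiz. All 7 were tested, 6 had negative differences, 0 passed, and the median was -0.25. In the RefSeq gene table of GRCm38.p6 these 7 genes lie beside each other, in the order Gstm5, Gstm7, Gstm6, Gstm3, Gstm2, Gstm1 and Gstm4. Gstm1, an abundant liver GST, read 30405, 33807 and 31299 with luciferase and 22494, 25567 and 26674 with Nfkbiz on its brightest probe set, 1416416_x_at. Every Nfkbiz array lay below every luciferase array, and the means were 31837 ± 1764 and 24912 ± 2166 (SD, n = 3). The difference was -0.36 ± 0.12, a level of 0.781 of the control (95% interval 0.645 to 0.946), with an unadjusted p of 0.0164 and a limma adjusted p of 0.302.

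The other probe sets of Gstm1 gave differences on the same side. Probe set 1448330_at read 28617, 31432 and 29988 against 19468, 23163 and 25145 (-0.42 ± 0.13), and 1425626_at read 1671, 2014 and 2338 against 1206, 1140 and 1564 (-0.62 ± 0.17). Neither overlapped between the groups. The last, 1425627_x_at, overlapped on 1 pair of arrays, 8393 for the first luciferase and 8396 for the second Nfkbiz array (-0.56 ± 0.20). Unadjusted p-values in the limma fit over 27022 probe sets were between 0.00485 and 0.0189 for the 4 probe sets, and the smallest limma adjusted p was 0.267. Probe sets ending in _x_at or _s_at are designed with probes that can match related transcripts, and 7 of the 60 end so. Readings of Gstm genes can therefore share signal.

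Gstm3 had a larger difference with a wider spread. Its probe set 1427474_s_at read 14936, 11052 and 16758 with luciferase and 6699, 7236 and 14262 with Nfkbiz (-0.67 ± 0.27, unadjusted p = 0.0313, limma adjusted p = 0.355). The second probe set, 1427473_at, read 4020, 2992 and 4247 against 1442, 1384 and 3587 (-0.95 ± 0.32). On both, the first and second Nfkbiz arrays lay well below all luciferase arrays and the third lay among them. With that array left out, 1427473_at had a difference of -1.39 ± 0.18 and passed over all probe sets (limma adjusted p = 0.0384), the only member probe set to pass when any 1 array was left out. In that fit 21 of 27022 probe sets passed (0.0777%). The brighter probe set then stood at -1.01 in the gene-level fit (limma adjusted p = 0.0914). With any other array left out, the brighter probe set was weaker or did not pass. It ran from -0.84 (without luciferase replicate 2) to -0.47 (without Nfkbiz replicate 1), with limma adjusted p from 0.405 to 0.668. Whether the lower vector-linked reading of the third Nfkbiz array plays a part was not tested.

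For Gstm2 and Gstm6, too, the first and second Nfkbiz arrays were the lowest of the 6. Gstm2 read 4861, 4362 and 6689 against 3378, 3248 and 5427 (-0.42 ± 0.22), and Gstm6 read 1886, 1866 and 1770 against 1410, 1426 and 1834 (-0.25 ± 0.14). In each case the third Nfkbiz array was the highest of its group and overlapped the luciferase arrays. Neither passed (limma adjusted p = 0.481 and 0.511). Gstm7 (-0.17 ± 0.16) and Gstm4 (-0.05 ± 0.18) overlapped widely. Gstm5 read 1184, 1306 and 1119 against 1121, 1229 and 1257, a difference of 0.00060 ± 0.13 with a 95% interval from -0.29 to 0.29, so a change in Gstm5 as large as the estimate for Gstm3 lay outside its interval.

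**Figure D2:**
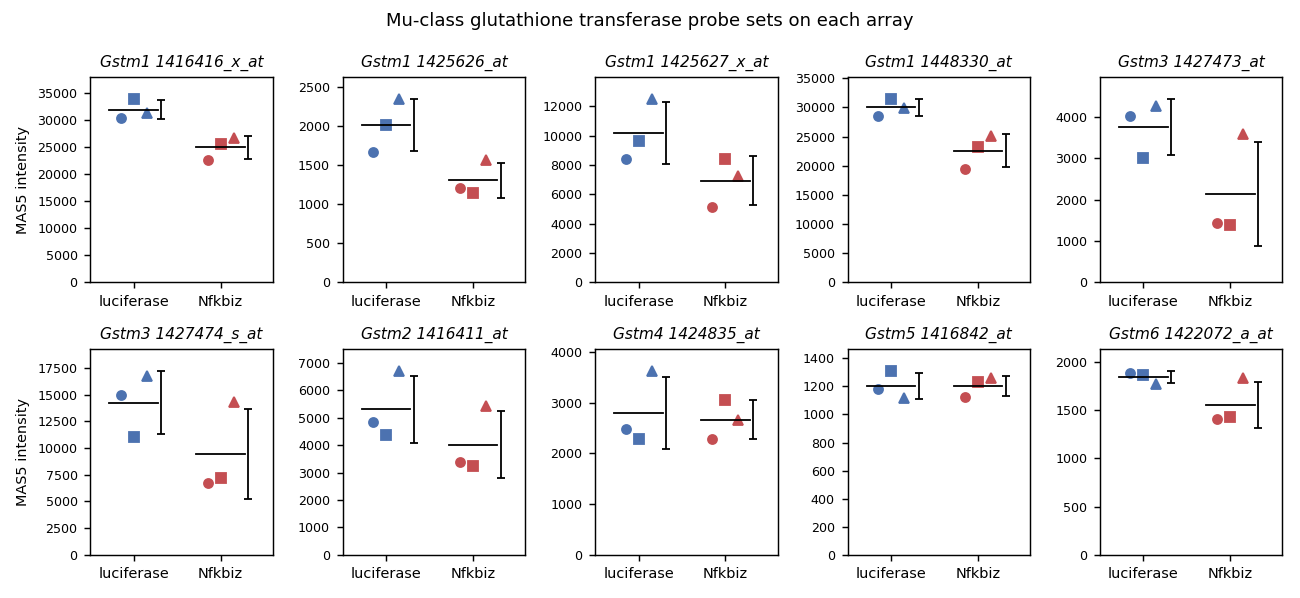
MAS5 intensity (y axis, from 0) of 10 mu-class GST probe sets on each array, blue for AAV8-luciferase and red for AAV8-Nfkbiz; circles, squares and triangles are replicates 1, 2 and 3, black lines the means and bars ± 1 SD. For both Gstm3 probe sets, Gstm2 and Gstm6 the third Nfkbiz array sits at luciferase levels while the first and second sit below them.

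The upstream sequences of Gstm1 and Gstm3, whose probe sets all read lower, and of Gstm5, at the far end of the stretch and with an estimate near 0, are shown to set the neighbours side by side. They are the 250 bases before a RefSeq transcription start on GRCm38.p6, written 5′ to 3′ along the gene, and for Gstm1, which has a pair of listed starts, before the more downstream one. Capitals mark the core of the antioxidant response element bound by NRF2 (TGACNNNGC) and the core of the AhR response element (GCGTG), searched on both strands.
Gstm1 (chr3:108017819-108018068, minus strand): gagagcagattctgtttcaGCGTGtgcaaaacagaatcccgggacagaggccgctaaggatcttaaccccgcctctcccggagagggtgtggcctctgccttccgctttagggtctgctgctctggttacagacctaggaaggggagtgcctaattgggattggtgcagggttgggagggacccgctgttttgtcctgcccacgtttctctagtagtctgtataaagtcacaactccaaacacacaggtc
Gstm3 (chr3:107969175-107969424, minus strand): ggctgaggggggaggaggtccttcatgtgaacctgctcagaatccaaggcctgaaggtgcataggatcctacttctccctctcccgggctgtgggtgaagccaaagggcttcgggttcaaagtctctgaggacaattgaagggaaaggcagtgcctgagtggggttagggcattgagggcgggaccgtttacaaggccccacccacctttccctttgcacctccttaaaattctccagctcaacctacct
Gstm5 (chr3:107895604-107895853, plus strand): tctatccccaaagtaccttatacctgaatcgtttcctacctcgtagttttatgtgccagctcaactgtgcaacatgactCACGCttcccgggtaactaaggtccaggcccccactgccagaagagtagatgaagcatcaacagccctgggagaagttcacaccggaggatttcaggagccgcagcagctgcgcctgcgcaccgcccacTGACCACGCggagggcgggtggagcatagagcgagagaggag
The Gstm5 window holds an antioxidant element core that overlaps a reverse-strand GCGTG, and 1 further GCGTG match. Gstm1 holds 1 GCGTG and Gstm3 neither motif. Over the full windows of 300 bases (250 before and 50 after a start), 4 of the 33 tested members with a promoter in the table held TGACNNNGC: Gsta3, Gstm5, Gstm7 and Mgst1. GCGTG was present for 8 of the 33. Among 32851 RefSeq promoter windows of that length, 12.4% held TGACNNNGC and 32.4% held GCGTG. These shares are per window, while the member counts are per gene with a match in any of its windows. These counts describe letters in a short window and not bound sites.

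Theta-class GSTs handle small halogenated molecules and epoxides. Gstt3 had the smallest unadjusted p of all members. It read 1746, 2170 and 2117 with luciferase and 889, 1069 and 1511 with Nfkbiz, so the groups did not overlap. Its difference was -0.83 ± 0.19, a level of 0.564 of the control (95% interval 0.419 to 0.759), with an unadjusted p of 0.00155 and a limma adjusted p of 0.161. Its neighbours in the RefSeq table, Gstt1 (-0.05 ± 0.14) and Gstt2 (-0.16 ± 0.15), had intervals within 1.5-fold, and Gstt4 was below the filter at 21.1 to 72.2.

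Alpha-class GSTs include Gsta3, which detoxifies aflatoxin epoxide in mice, and Gsta4, which conjugates the lipid peroxidation product 4-hydroxynonenal. Gsta4 read 6988, 5551 and 5931 with luciferase and 3187, 5046 and 5663 with Nfkbiz. The first Nfkbiz array was low, the third overlapped the luciferase arrays, and the difference was -0.45 ± 0.20 (unadjusted p = 0.0512, limma adjusted p = 0.418). With the first Nfkbiz array left out it was -0.20 ± 0.16 (limma adjusted p = 0.744). Gsta2 read 12065, 10137 and 14240 against 8751, 10173 and 11694 (-0.25 ± 0.16). Gsta3 had a difference of 0.22 ± 0.15 on its brighter probe set and -0.06 ± 0.16 on the other. None of the 3 passed.

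The remaining GST and MGST genes had differences close to 0. Gstp1, the pi-class enzyme and a major liver GST of male mice, read 33829, 39015 and 40383 against 41161, 41877 and 36016 (0.07 ± 0.13, 95% interval -0.22 to 0.36). Its neighbour Gstp3 had a difference of -0.20 ± 0.19. Mgst1, a membrane enzyme with glutathione peroxidase activity, read 38301, 44719 and 45484 against 45667, 48696 and 41363 (0.08 ± 0.13). Mgst3 (0.05 ± 0.19), the mitochondrial and peroxisomal Gstk1 (0.03 ± 0.13) and Gsto1 (0.14 ± 0.15), an omega-class enzyme that reduces thiol adducts, also overlapped between the groups. Mgst2 and Gsto2 were below the filter. After quantile or loess normalization Gstk1 had a negative sign, and after loess so did Gstp1 and Mgst1.

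UGT genes showed little difference between the vectors. The Ugt1a enzymes, which share their last exons, had no probe set with a single symbol, so the class here holds 8 Ugt2, 2 Ugt3 genes and Ugt8a. Of 10 tested, 0 passed and 0 reached an unadjusted p below 0.05. Positive differences were found for 8 of the 10 (median 0.14), for 7 after quantile or loess normalization and for all 10 after median centring. Ugt2b5 read 20141, 23339 and 28210 with luciferase and 24360, 26857 and 20691 with Nfkbiz, a difference of 0.01 ± 0.16. Ugt2b1, which conjugates steroids and drugs, had a difference of -0.01 ± 0.16, Ugt2b34 of -0.0036 ± 0.12, Ugt2b36 of 0.11 ± 0.15, Ugt2b35 of 0.16 ± 0.16 and Ugt2a3 of 0.12 ± 0.16. These 6 were the UGT genes whose intervals lay within 1.5-fold.

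Ugt3 enzymes use sugar donors other than UDP-glucuronate. Ugt3a2 read 11462, 15266 and 14262 against 16082, 19223 and 13526 (0.25 ± 0.16, limma adjusted p = 0.578), and Ugt3a1 read 1558, 2090 and 2480 against 2854, 3244 and 1725 (0.33 ± 0.24, limma adjusted p = 0.622). For both, the first and second Nfkbiz arrays exceeded all luciferase arrays and the third did not. Ugt2b37 (0.34 ± 0.39) and Ugt2b38 (0.44 ± 0.39) were read at 141 to 384.2 and at 78.3 to 209.9, and their intervals included 2-fold changes. Ugt8a was below the filter.

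**Figure D3:**
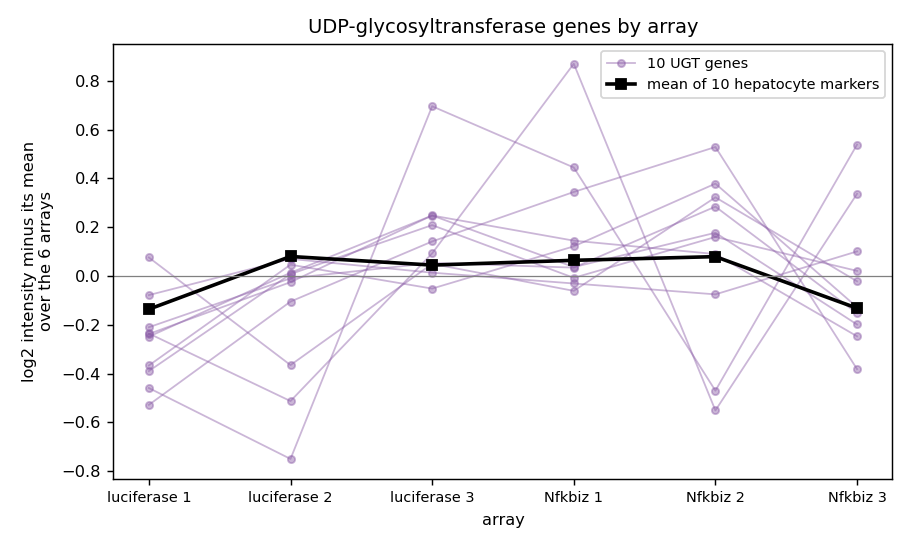
Log2 intensity minus its mean over the 6 arrays (y axis) for each of 10 UGT genes (purple) and for the mean of 10 hepatocyte markers (black squares), by array. The first luciferase array is the lowest for 7 of the 10 genes, and the hepatocyte mean is low on that array and on the third Nfkbiz array.

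The members' readings also differed between single arrays within a group. The first luciferase array had the lowest reading for 19 of the 37 members (51.4%), for 7 of 10 UGT genes and for 5 of 8 SULT genes, against 13.7% of all genes. The third luciferase and the second Nfkbiz array had the highest reading for 13 members each (35.1%), against 18.25% and 16.51% of all genes. The mean log2 level of the hepatocyte markers was 14.77, 14.99 and 14.95 with luciferase and 14.97, 14.99 and 14.77 with Nfkbiz, lowest on luciferase replicate 1 and Nfkbiz replicate 3. Whether hepatocyte RNA content plays a part in the order of the UGT readings was not tested, and fewer cells of a type and less RNA per cell cannot be told apart in these whole-liver samples. Without the first luciferase array the median difference of the UGT genes was 0.08 and 6 of 10 were positive. The third Nfkbiz array was the one nearest to the luciferase mean for 22 of the 37 members (59.5%), against 39.98% of all genes.

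SULT differences ran from -0.82 to 0.64. Of 13 genes, 8 were tested, 0 passed, 5 had positive and 3 negative differences, and their median size of difference was 0.42. Sult1e1, the estrogen sulfotransferase, read 351, 516.5 and 1081 with luciferase and 387.3, 257.7 and 357.4 with Nfkbiz. The third luciferase array was the highest by far and the first overlapped the Nfkbiz arrays. The difference was -0.82 ± 0.35 (unadjusted p = 0.0412, limma adjusted p = 0.387), and it was -0.37 without the third luciferase array.

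Several sulfotransferases had differences on the positive side. Sult5a1 read 317, 416 and 619.6 against 1151, 583 and 462 (0.64 ± 0.33, limma adjusted p = 0.48), with 1 high Nfkbiz array. Sult1b1, which acts on thyroid hormones and phenols, read 607, 901 and 1169 against 1132, 1631 and 941 (0.48 ± 0.26, limma adjusted p = 0.493). Sult2a8, a bile acid sulfotransferase of mouse liver, read 12276, 17564 and 17955 against 22616, 23194 and 15381 (0.35 ± 0.20, limma adjusted p = 0.511). As with the Ugt3 genes, the third Nfkbiz array fell within the luciferase range for Sult1b1 and Sult2a8. For Sult1b1, unlike the Ugt3 genes, the first Nfkbiz array (1132) did so too.

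The phenol sulfotransferase Sult1a1 (0.07 ± 0.14) and Sult1d1 (0.09 ± 0.22) overlapped widely. Sult1c2 read 287, 313 and 295 against 242, 232 and 272, without overlap, and its difference was -0.27 ± 0.18 (limma adjusted p = 0.583). Sult2a2, a hydroxysteroid sulfotransferase, was read at 40.2 to 155 (-0.59 ± 0.53). Sult1c1, Sult2b1, Sult3a1, Sult4a1 and Sult6b1 were below the filter. Among them Sult3a1 read 1.57, 1.39 and 31.6 against 27.2, 35.4 and 25.8. These values lie under the intensity of the filter and 1 luciferase array reached the Nfkbiz levels.

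**Figure D4:**
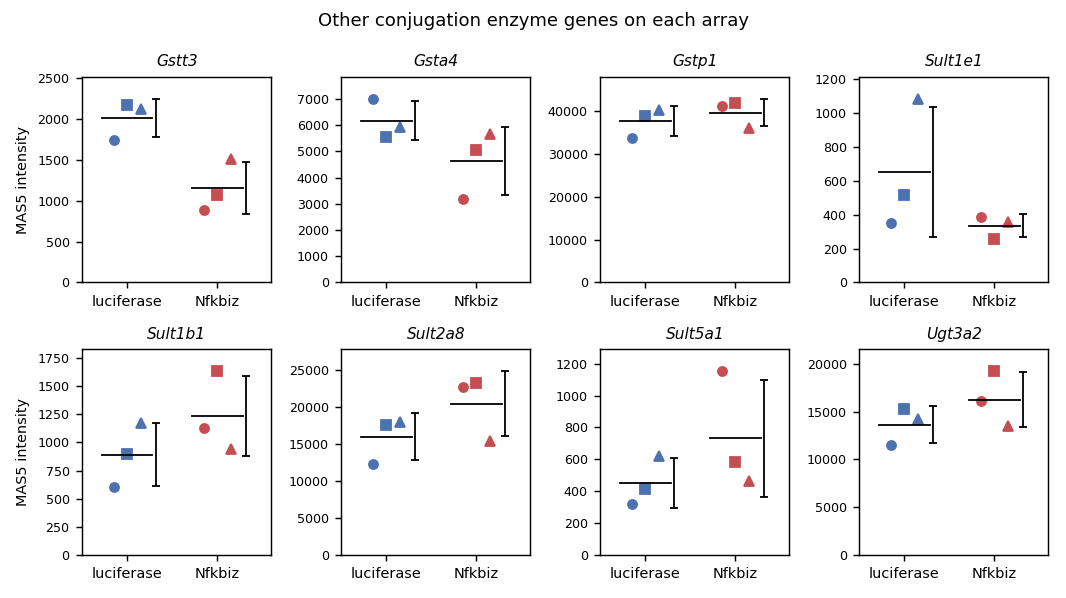
MAS5 intensity (y axis, from 0) of 8 GST, SULT and UGT genes on each array, blue for AAV8-luciferase and red for AAV8-Nfkbiz; circles, squares and triangles are replicates 1, 2 and 3, black lines the means and bars ± 1 SD. Of the 8, the groups are apart for Gstt3, and 1 array sets the spread for Sult1e1 (luciferase replicate 3) and Sult5a1 (Nfkbiz replicate 1).

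The RefSeq table places 13 Ugt2 and Sult1 genes in 1 stretch, with 11 tested members. Their differences ran from -0.82 for Sult1e1 to 0.48 for Sult1b1, with 8 positive and 3 negative, so genes of this stretch differed in sign. Sult1d1 (0.09) lies between Sult1b1 and Sult1e1.

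Genes that supply or control the conjugation enzymes were counted in lists chosen with earlier results of these data known. None of the 7 lists had a member past the limma adjusted threshold. Of 5 genes of UDP-glucuronate supply and use, 5 had negative differences (median -0.24), among them Ugdh, which makes UDP-glucuronate (-0.24 ± 0.13), Ugp2 (-0.27 ± 0.14) and the transporter gene Slc35d1 (-0.29 ± 0.13). Of 7 genes of PAPS supply and sulfatases, 5 were negative (median -0.21), and 3 were lower at an unadjusted p below 0.05 (7.0% of all genes). They were the PAPS synthase genes Papss2 (-0.47 ± 0.17) and Papss1 (-0.40 ± 0.17) and the sulfatase gene Arsa (-0.40 ± 0.14), with limma adjusted p-values between 0.299 and 0.382. With the mean of its probe sets Papss2 had a difference of -0.13 (limma adjusted p = 0.928).

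For glutathione synthesis and use 10 of 16 genes were positive (median 0.09). Gclc, the catalytic subunit of the rate-limiting enzyme, had a difference of -0.15 ± 0.16, Gclm, its modifier subunit, of -0.10 ± 0.15, and Gss of 0.10 ± 0.14. Chac1, which degrades glutathione, had a difference of -1.17 ± 0.26 (limma adjusted p = 0.144) and Ggct of 0.42 ± 0.15. Gpx4, the lipid hydroperoxide peroxidase, had 0.23 ± 0.17. The list of other phase II transferases also held related enzymes such as Acsm1 and Acsm3, and most of its members add acetyl, methyl or acyl groups. Differences were positive for 13 of its 15 genes (median 0.12), with Nat8 at 0.38 ± 0.15, Nat2 at 0.31 ± 0.15 and Glyat at 0.21 ± 0.12.

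Among NRF2 regulators and targets 15 of 19 genes were negative (median -0.10), 5 with an unadjusted p below 0.05 against 1 positive. Over all genes 7.0% were lower and 5.03% higher at that level, and 10% were lower without overlap. Bach1, a repressor at antioxidant response elements, had a difference of -0.49 ± 0.13, its partner gene Mafg of -0.65 ± 0.19, and the conjugate exporter genes Abcc2 and Abcc3 of -0.44 ± 0.13 and -0.41 ± 0.12, each without overlap between the groups. The limma adjusted p-values of these 4 lay between 0.192 and 0.23. Of 17 alternatives Mafg passed in 1, without the third luciferase array (-0.88 ± 0.12, limma adjusted p = 0.0358). Its limma adjusted p reached 0.469, without Nfkbiz replicate 2. On its most variable probe set Mafg had -1.18 (limma adjusted p = 0.103). Nfe2l2, the NRF2 gene, had 0.20 ± 0.14, and its classical target Nqo1 had -0.05 ± 0.15.

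The xenobiotic receptor list had negative differences for 9 of 11 genes (median -0.15), 5 of them with an unadjusted p below 0.05. Over all genes 7.0% were lower at that level, and 10% were lower without overlap. Nr1i2, the PXR gene, read 1768, 2021 and 2262 against 1591, 1207 and 1092 (-0.65 ± 0.17, limma adjusted p = 0.183). Ahr read 2814, 2992 and 3334 against 2202, 2458 and 2414 (-0.37 ± 0.12, limma adjusted p = 0.284), and Rxra, a shared partner, had -0.40 ± 0.16. For all 3 the groups did not overlap. With the mean of its probe sets Rxra had the opposite sign, at 0.14, and without Nfkbiz replicate 2 it had -0.25. On its most variable probe set Ahr had -0.14 ± 0.34 (limma adjusted p = 0.916). Nr1i3, the CAR gene, had -0.09 ± 0.22.

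P450 genes under these receptors were negative for 8 of 12 (median -0.18). Cyp1a2, an AhR target of pericentral hepatocytes, read 17728, 20040 and 19912 against 12199, 13271 and 14369, without overlap (-0.53 ± 0.12, limma adjusted p = 0.154). It passed in 1 of 17 alternatives, quantile normalization (-0.64, limma adjusted p = 0.0424), and its limma adjusted p reached 0.45 in another. Cyp1b1 had -1.16 ± 0.38 and Cyp3a25 -0.33 ± 0.14, while the PXR target Cyp3a11 had 0.07 ± 0.13. With its probe sets averaged Cyp1b1 had -0.19 ± 0.38 (limma adjusted p = 0.903).

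**Figure D5:**
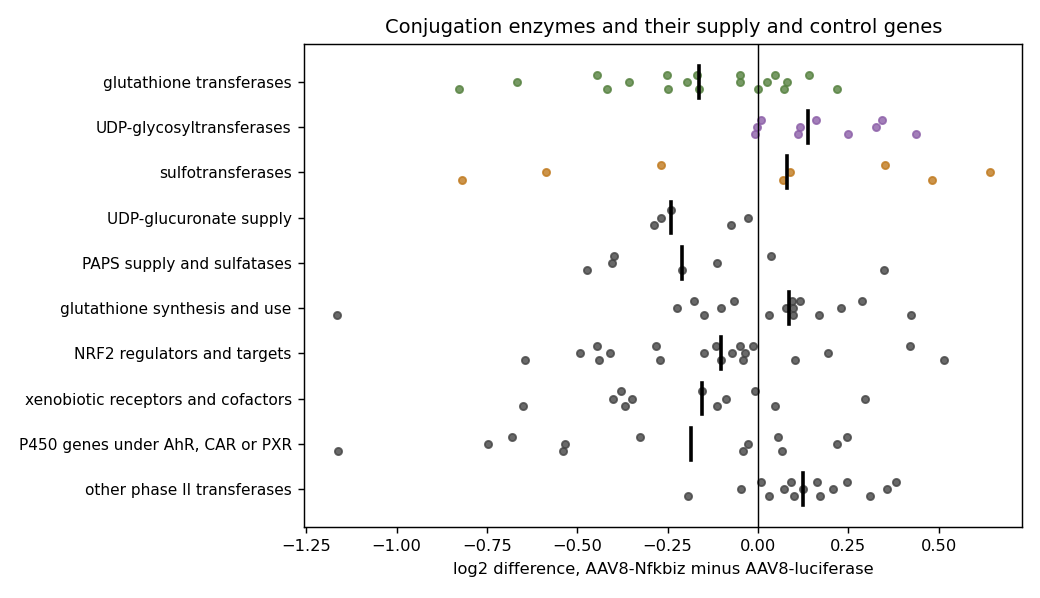
Log2 difference (AAV8-Nfkbiz minus AAV8-luciferase, x axis) of each tested gene (points, offset vertically for visibility) in the 3 conjugation enzyme classes and 7 lists of supply, control and related genes, with black bars at the medians. The UGT points lie between -0.01 and 0.44, and the list medians lie between -0.24 and 0.12.

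Growth hormone and sex set the level of several members, among them some Sult2a and Sult3a genes that are higher in female mouse liver. The Y-linked gene Eif2s3y read 1599 to 1848 on all 6 arrays. Male-biased liver genes were positive for 8 of 9 (median 0.39, 0 called), with Hsd3b5 at 2.65 ± 0.47, Cyp7b1 at 0.96 ± 0.22 and Slco1a1 at 0.80 ± 0.29. Female-biased genes were negative for 6 of 9 (median -0.64, 0 called) and positive for 3. The smallest unadjusted p among them was that of a positive gene, Acot3 (1.118 ± 0.321, limma adjusted p = 0.218), without overlap between the groups. Fmo2 was the 1 female-biased gene lower at an unadjusted p below 0.05 (-0.684 ± 0.268, limma adjusted p = 0.347). Hsd3b5 missed the threshold (limma adjusted p = 0.0625). Of 16 alternatives it passed in 3: median centring (limma adjusted p = 0.0392), array weights (0.0349) and Nfkbiz replicate 3 left out (3.22, 0.00969). Over the 16, its difference ran from 2.21 to 3.22 and its limma adjusted p reached 0.329. The growth hormone signalling list had 1 gene called of 9, Socs2, a feedback inhibitor (1.57 ± 0.15, limma adjusted p = 0.00285). With its probe sets averaged, Socs2 differed by 0.62 ± 0.38 (limma adjusted p = 0.628), and without the intensity trend its limma adjusted p was 0.111. Of 15 pericentral genes 1 was called lower, the glutamate transporter gene Slc1a2 (-1.22 ± 0.18, limma adjusted p = 0.0316), with a median of -0.06 over the list. Of 13 periportal genes 0 were called, with a median of -0.09. The smallest unadjusted p-values in that list were those of Ctsc (0.69 ± 0.21, limma adjusted p = 0.238) and Pck1 (-0.47 ± 0.15, limma adjusted p = 0.25). Ass1, a urea cycle gene of that list, was read at 60.5 to 608, far below Cps1 of the same list (29572 to 40742). Ass1 had -0.99 ± 0.73 and passed without luciferase replicate 3, its lowest reading (-2.09 ± 0.24, limma adjusted p = 0.0147). That was 1 of 17 alternatives, over which its difference ran from -2.09 to -0.42 and its limma adjusted p reached 0.892. Leaving out any 1 array ended the Slc1a2 call (limma adjusted p from 0.0518 to 0.122), as did the replicate block (0.0632) and the fit with no intensity trend (0.312), and the mean of its probe sets had a difference of -0.48 (limma adjusted p = 0.605).

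Markers of other liver cells differed between the groups in some lists. The mean log2 level of 13 macrophage and Kupffer cell markers was 10.95, 11.53 and 10.85 with luciferase and 11.93, 12.02 and 11.58 with Nfkbiz, and 12 of the 13 were positive. That of 4 cholangiocyte markers above the filter was 7.63, 7.011 and 7.005 against 6.61, 6.58 and 6.99, with 3 of 4 negative. For T and NK cells (8 markers) it was 6.33 to 6.61 against 6.66 to 7.27, with 5 markers positive and 3 negative. Gzma was the 1 called (1.77 ± 0.28, limma adjusted p = 0.0427). Omitting any single array ended that call as well (limma adjusted p from 0.0518 to 0.201), as did no filter (0.0841), the mean of probe sets (0.0729), the most variable probe set (0.0732) and no intensity trend (0.312). In these 3 lists the groups did not overlap, which gives the smallest exact two-sided permutation p possible with 3 against 3, 0.1. The part of these cells in the readings of the conjugation enzymes was not tested. For sinusoidal endothelial, stellate, B and plasma cell, neutrophil and other-tissue markers the exact permutation p was 0.7, 0.6, 0.2, 0.6 and 0.9, with 0 called in each.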

How the data were processed

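Liver RNA was measured on 6 arrays, from 100 ng of total RNA each, in 2 groups of 3 taken from the sample titles. The authors deposited linear intensities made with MAS5, a tool named in the submitters' processing notes without version or target. Trimmed array means (2% cut at each end) ran from 495.2 to 496.3. For arrays, their number limits the precision.

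Of 45037 probe sets, 34945 had 1 gene symbol in the platform annotation, 932 had several and 9160 were not listed. For each of 18193 genes the probe set brightest by mean log2 over all arrays was used. Intensities were log2-transformed without pseudocount or further normalization, and genes in the lowest 40% of probe sets were left out. In R 4.3.3, limma 3.58.1 (lmFit, then eBayes with trend) was fitted over 13312 genes and, separately, over 27022 probe sets, with two-sided tests, Benjamini-Hochberg adjustment and a threshold of 0.05. It was tested on simulated data. SDs are over 3 arrays.

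Members and lists were chosen with earlier results of these data known. The genes named were, in each family, up to 4 tested members with the smallest unadjusted p and up to 2 of the highest intensity, and up to 3 genes per list. Other genes were named after their values were seen. Alternatives covered normalization, filter, pseudocount, probe set choice, variance prior, array weights, a replicate block and leaving out each array. Promoter sequences are RefSeq's on GRCm38.p6, found for 41 of 46 members. Figures were drawn with matplotlib 3.10.9.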

Additional observations from a re-analysis of the deposited data

How the results depend on the processing

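The count of 0 conjugation enzyme genes past limma's threshold held under every alternative run: quantile, loess and median scaling, no filter (46 genes) and a stricter one (35), a pseudocount of 16, 2 other choices of probe set, no intensity trend, array weights, the replicate block, and leaving out each array. At an unadjusted p below 0.05 these gave between 2 and 6 members lower and between 0 and 5 higher. The labels do not say whether shared replicate numbers pair the samples. Same-numbered arrays had correlations of their deviations of -0.06, 0.07 and -0.03, which cannot settle this. With the replicate block 27 genes were called against 30, and 0 members. Of the genes named, Slc1a2 lost its call with the block (limma adjusted p = 0.0632). Member probe sets called ranged from 0 to 1 when 1 array was left out, where 21 of 27022 probe sets (0.0777%) were called in the setting with 1. The count over all genes was 13 with the mean of probe sets, 10 with the most variable probe set, 62 with array weights, 0 without the intensity trend (10.1% of genes at an unadjusted p below 0.05), and 8 to 19 without 1 array.

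Differences near 0 changed sign with the setting. After quantile normalization Gstk1 had -0.029, Sult1a1 -0.034, Ugt2b5 -0.087, Cyp3a11 -0.0029 and Nqo1 0.019. After loess normalization Gstk1 had -0.021, Gstp1 -0.055, Mgst1 -0.055, Sult1a1 -0.011, Ugt2b5 -0.095, Cyp3a11 -0.058 and Nqo1 0.0072. Median centring gave 0.025 for Ugt2b1 and 0.030 for Ugt2b34. With array weights Gstm4 had 0.024, Gstm5 -0.053, Mgst3 -0.011 and Ugt2b1 0.031. Gsta3 had -0.057 and Gss -0.0077 with the most variable probe set, and Rxra 0.14 with the mean of probe sets. Leaving out 1 array gave -0.061 to 0.095 for Gstk1, -0.18 to 0.15 for Gstm4, -0.050 to 0.061 for Gstm5, -0.0035 to 0.14 for Gstp1, -0.16 to 0.016 for Gstt1, -0.13 to 0.28 for Mgst3, -0.033 to 0.16 for Sult1a1, -0.12 to 0.37 for Sult1d1, -0.050 to 0.25 for Ugt2a3, -0.13 to 0.11 for Ugt2b1, -0.055 to 0.033 for Ugt2b34, -0.0040 to 0.21 for Ugt2b36, -0.11 to 0.14 for Ugt2b5, -0.31 to 0.12 for Nr1i3 and -0.016 to 0.13 for Cyp3a11. The cause was not tested.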
